A study of Mus musculus with 9 samples.

Results

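The coat and tether genes of transport between the endoplasmic reticulum (ER) and the Golgi apparatus were examined in macrophages of mouse visceral fat with and without intact Nucb2, which encodes nucleobindin-2, a calcium-binding protein found in the Golgi. The members were taken by gene symbol alone: the Cop genes of the COPI coat, the Sec genes with a number, and the Tmed, Golga and Golgb, Trappc and Cog genes. The rule took 73 of the 14905 genes of the deposited table. No expression value entered the rule itself. The name of the table marks it as filtered, and its lowest gene mean is 5.09. Genes that match by symbol but are absent from the table could not be taken. All levels below are normalized counts, the unit of that table. By role, 61 of the 73 were classed with coats, cargo receptors, SNAREs or tethers. These classes follow the gene symbols, and Golga7, classed with the golgins, lacks their long coiled coil. The symbols also took in 6 genes of the ER translocon, 2 of the signal peptidase, 3 of the Sec14-like lipid-binding proteins and Sec1, a fucosyltransferase gene.

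Cells positive for F4/80 and CD11b had been sorted from visceral adipose tissue, and their messenger RNA was sequenced. The 5 libraries labelled KO came from Nucb2-/- mice and the 4 labelled WT from wild-type mice. Both groups have the C57BL/6 background. The series title speaks of obesity, and the name under which the table of all 9 libraries was deposited carries the letters HFD, an abbreviation often used for a high-fat diet. The sample labels themselves give no diet, age or sex, no treatment of the mice, and no description of the Nucb2 allele. The labels number the libraries but do not say that each is a separate mouse. A p-value here therefore speaks of library-to-library spread, which may hold a technical part.

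Proteins that enter the secretory pathway are threaded into the ER through the Sec61 channel and leave it in vesicles that the COPII coat shapes. The COPI coat carries escaped ER residents and cycling receptors back, and p24 proteins (the Tmed family) act as receptors that link cargo to both coats. Vesicles are then caught by tethers, which are the long coiled-coil golgins and the multi-subunit TRAPP and COG complexes, and fuse through SNARE proteins such as Sec22b. Macrophages depend on this route to secrete cytokines and lysosomal enzymes and to place receptors on their surface.

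None of the 73 members differed between KO and WT libraries past the threshold, so the count of called members was 0, where 0.309% of all genes in the table were called (46 of 14905; limma, adjusted p under 0.05). The smallest adjusted p among the members was 0.433. At an unadjusted p under 0.05 there were 2 members, Cog5 and Golga7, both lower in KO, which is 2.74% of the members against 9.14% of all genes. In limma-voom on reads worked out from the values the called count was also 0, and Cog5 was the 1 member with an unadjusted p under 0.05. The ranges of the groups stood apart in 1 member, Cog5, where 3.15% of all genes had ranges that did not overlap. Of the 73 members, 38 had a higher and 35 a lower mean log2 value in KO. Their median log2 difference (KO minus WT, on log2 of the normalized count plus 1) was 0.03, beside 0.02 over all genes.

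The intervals show how large a difference these libraries leave room for. In 46 of the 73 members (63.0%) the 95% interval of the KO over WT ratio lay within 1.5-fold in either direction. This count was 28 in the 6 libraries with the most reads and 37 to 43 with 1 library left out. Among all genes this held for 28.0%. The members were also more abundant, with a median mean of 2413 normalized counts against 648.6 over all genes. With both limited to genes with a mean of at least 1000, the interval lay within 1.5-fold in 82.1% of 56 members and in 65.6% of 6257 genes. For the other 27 members a difference of 1.5-fold or more lay inside the interval, and a lack of change cannot be read from them.

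**Figure D1:**
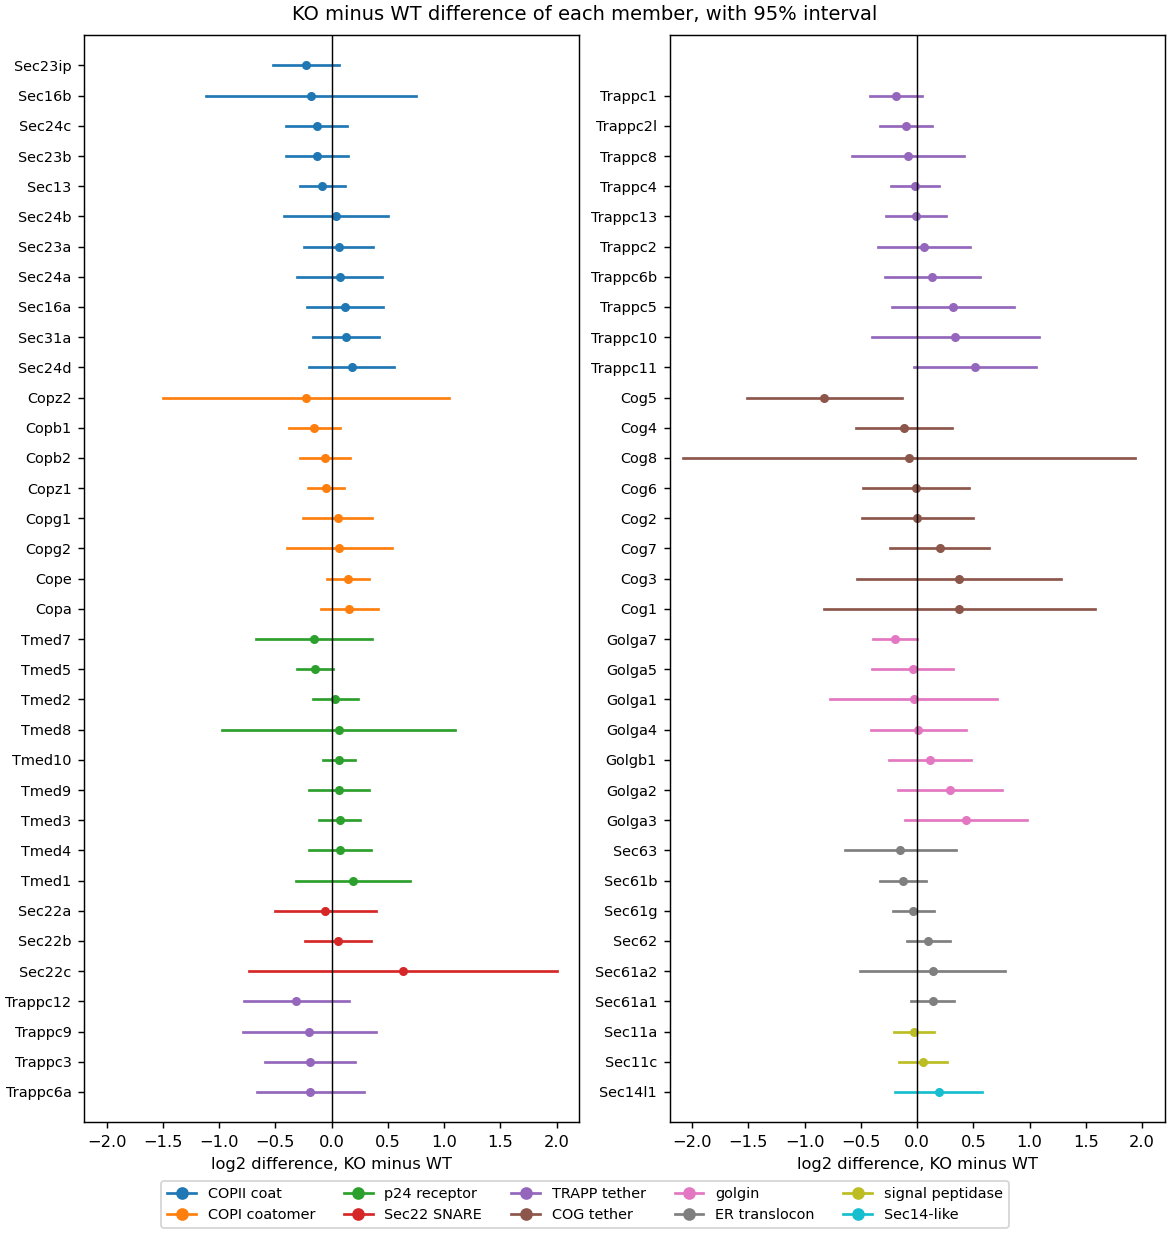
Log2 difference (KO minus WT, horizontal axis) of the 69 members above the floor in each library, with 95% intervals as lines and 1 colour per role. Most intervals of the coats and p24 receptors are short, and all of them cross 0, while Cog8, Copz2 and Sec22c, genes of low count, have the widest.

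As estimated from the steps between values, the 14905 genes of the table, which has a floor of 1, held 51148956 to 85200108 reads per library. Reads on genes outside the table are not in these totals. The 6 deeper ones (KO replicates 1 to 4, WT replicates 1 and 2) had at least 74937721, and the 3 shallower ones (KO replicate 5, WT replicates 3 and 4) at most 55004978. Nucb2 itself ranged from 1165 to 1752 in KO and from 3311 to 5233 in WT, so the genotype labels and the targeted gene go together (log2 difference -1.52, SE 0.17, limma adjusted p = 0.00054). The sorting antigens were high in each library: Adgre1, which encodes F4/80, had at least 85568 normalized counts and Itgam, which encodes CD11b, at least 19952. The summed level of 8 macrophage and sort genes lay between 1113090 and 1274210 in KO and between 1160465 and 1303161 in WT. Markers of other cell types were detected too. The sum over 8 endothelial genes was 4218 to 8304 in KO and 1937 to 4104 in WT, and over 8 mast cell genes 1850 to 3492 and 6081 to 10799, so these ranges stood apart. Sums for mesothelial genes (5629 to 18470 in KO, 2255 to 7637 in WT), fibroblast genes (286740 to 446363 in KO, 200939 to 335920 in WT), adipocyte genes (284913 to 385509 and 353634 to 446883) and 7 plasma and B cell genes (3883 to 12935 and 4780 to 11242) overlapped. Of these markers 4 were called, all in the mast cell list, and 0 were at the floor of the table in each library. The part of these cells in the members' values was not tested, and in a bulk sample fewer cells of a type and less RNA per cell cannot be told apart.

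The COPII coat, which buds vesicles from the ER, was measured through 12 genes, and 0 of them had an unadjusted p under 0.05. Their median log2 difference was -0.02, with 6 higher and 6 lower. Sec13, an outer-layer subunit that also serves in the nuclear pore, was the most abundant, at 7198 ± 500 in KO libraries and 7618 ± 489 in WT ones (SD, n = 5 and 4). The KO over WT ratio of Sec13 was 0.945, with a 95% interval of 0.823 to 1.08. Sec31a, the other outer-layer subunit, had 5427 ± 815 in KO libraries and 4969 ± 726 in WT ones, a ratio of 1.09 with an interval of 0.889 to 1.34. Both intervals include a ratio of 1, and the KO and WT ranges overlapped for each of these genes. The inner layer binds cargo through Sec24 proteins, and Sec23 activates the hydrolysis of GTP by Sar1. Sec23a had 4143 ± 628 in KO libraries and 3972 ± 650 in WT ones, and Sec23b had 4299 ± 610 and 4695 ± 566 (SD, n = 5 and 4). Sec16a, the scaffold of ER exit sites, had 2393 ± 306 in KO libraries and 2218 ± 400 in WT ones, and Sec23ip, a Sec23-binding protein, had 2538 ± 332 and 2961 ± 259. Sec31b was close to the floor: it stood at 1 in KO replicates 1 and 3 and in WT replicate 2, and between 10.2 and 165 in the other libraries, so no fold is given.

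The COPI coat is built of subunits that are recruited to the membrane as one complex, and 8 genes of it were measured, with 4 higher, 4 lower and a median log2 difference of 0.00028. Copz1, the main zeta subunit, had 15710 ± 676 in KO libraries and 16322 ± 969 in WT ones, a ratio of 0.963 with a 95% interval of 0.861 to 1.08. Cope, the epsilon subunit, had 14595 ± 1023 and 13241 ± 1272, a ratio of 1.10 with an interval of 0.969 to 1.26 (limma adjusted p = 0.67). The alpha subunit gene Copa had 10939 ± 922 in KO libraries and 9916 ± 1772 in WT ones, and the beta-prime gene Copb2 had 8300 ± 773 and 8640 ± 921 (SD, n = 5 and 4). Arcn1, the delta subunit gene that the symbol rule does not take, had an unadjusted p of 0.605. Each of these pairs of groups overlapped.

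Copb1, the beta subunit gene, is of interest for its place: it lies on chromosome 7 from 114215559 to 114254711 (mm10, minus strand), 2.25 Mb from Nucb2, nearer than any other member. It had 10340, 11183, 10476, 7733 and 10402 normalized counts in KO replicates 1 to 5, and 12127, 10784, 10503 and 10943 in WT replicates 1 to 4. The KO and WT ranges overlapped, and KO replicate 4 lay below all other libraries. The log2 difference of Copb1 was -0.15 (SE 0.11, limma adjusted p = 0.71), and without KO replicate 4 it was -0.06. Cog7, at 5.34 Mb, and Sec23ip, at 12.2 Mb, were the next nearest members, with limma adjusted p of 0.81 and 0.66.

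The p24 family, which forms hetero-oligomers of alpha, beta, gamma and delta members, was the most abundant class by summed level per kb. Tmed10, the delta member, had 43423, 40847, 42909, 39613 and 39137 in KO libraries and 40655, 39203, 36924 and 40948 in WT. KO replicates 1 and 3 lay above all WT libraries, WT replicate 3 lay below all KO libraries, and the other libraries overlapped. The ratio was 1.04 with a 95% interval of 0.947 to 1.15, the narrowest among the members (log2 difference 0.06, SE 0.07). Tmed5, a gamma member, had 15761, 18851, 17991, 17859 and 17872 in KO and 19620, 19950, 18811 and 19720 in WT. All but KO replicate 2 of the KO libraries lay below each WT library. The log2 difference of Tmed5 was -0.15 (SE 0.07, unadjusted p = 0.069, limma adjusted p = 0.585), so it did not pass. Tmed3, another gamma member, had 13895 ± 729 in KO libraries and 13265 ± 1289 in WT ones; Tmed9, an alpha member, had 7493 ± 1298 and 7080 ± 471; and Tmed2, the beta member, had 6281 ± 411 and 6140 ± 248 (SD, n = 5 and 4). Tmed1 had the largest difference of the class, with 1078 ± 253 in KO libraries and 943 ± 210 in WT ones. Its log2 difference was 0.19 (SE 0.24), with a 95% interval of the ratio of 0.802 to 1.62. In all, 7 of the 9 Tmed genes were higher and 2 lower in KO, with a median log2 difference of 0.06 (-0.025 in the 6 deeper libraries) and 0 with an unadjusted p under 0.05.

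Tmed7, a further gamma member, varied more than other members of its abundance. It had 5892 normalized counts in KO replicate 2 and 5633 in WT replicate 1, and between 2384 and 3570 in the other 7 libraries. The high libraries were thus 1 of each group. Its exons overlap those of Ticam2 on the same strand, whose KO range was 3475 to 5604 and WT range 4207 to 4881. The sources used here do not give how reads shared by the pair were counted.

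Levels of different genes can be compared once divided by exon length (the union of all annotated exons, GENCODE release M21). In WT libraries Tmed10 had 6786 ± 316 normalized counts per kb, Sec61b 5909 ± 611, Trappc1 4730 ± 302, Sec61g 4730 ± 368, Tmed3 4659 ± 453 and Copz1 4457 ± 265 (SD, n = 4). Within COPI the order in WT was Copz1, Cope at 3949 ± 379, Copb1 at 1987 ± 128, Copb2 at 1360 ± 145, Copa at 1052 ± 188, Copg1 at 465 ± 83.8, Copg2 at 288 ± 27.3 and Copz2 at 154 ± 39.8. The mean ± SD ranges of Copz1 and Cope met, as did those of Copb2 and Copa, but such ranges do not compare 2 genes within a library. Per kb, Copb2 lay above Copa in each WT library. The order of the subunits was not tested. Subunits of one coat complex differed widely in transcript level per kb. Annotated exons that these cells do not use lower a gene's value on this scale.

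**Figure D2:**
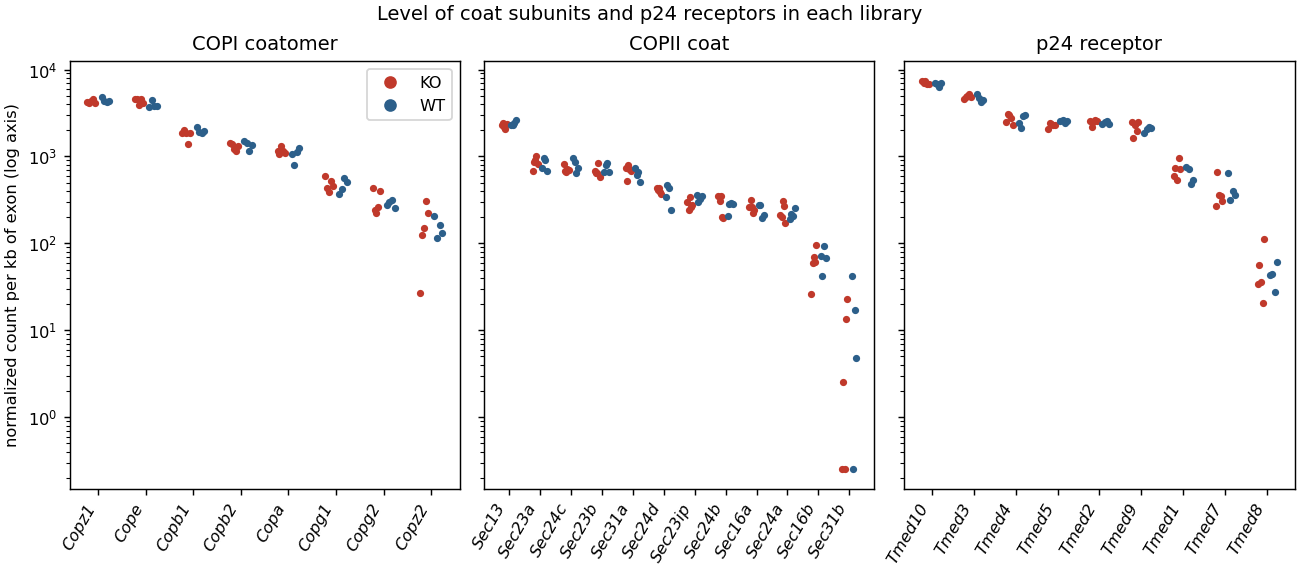
Normalized count per kb of exon (log axis) of each COPI subunit, COPII gene and p24 receptor in 5 KO (red) and 4 WT (blue) libraries, 1 dot per library. Red and blue dots overlap for each gene, Tmed10 is the highest of the genes shown, and Sec31b reaches the floor of the table in 3 libraries.

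Where a subunit has several gene copies, the share of each copy in their summed transcript level per kb is given. These are shares of RNA in a bulk sample, and annotated exons that are not used can shift them. Protein was not measured. Transcripts of the gamma subunit of COPI came from both copies, with Copg1 at 61.2% ± 5.58 in KO libraries and 61.5% ± 4.18 in WT (SD, n = 5 and 4). Those of the zeta subunit came almost wholly from Copz1, at 96.3% ± 2.2 in KO and 96.7% ± 0.7 in WT. Sec31a took 94.6% to 100% of the Sec31 level, and Sec61a1, the channel-forming subunit, 92.1% to 96.5% of the Sec61 alpha level over the 9 libraries. Sec23a and Sec23b shared their level almost evenly: Sec23a took 55.6% ± 3.6 in KO and 52.3% ± 1.6 in WT. Of the Sec24 copies, which bind different cargo signals, Sec24c took the most, 44.0% ± 3.9 in KO and 48.1% ± 6.2 in WT. Sec24d took 24.9% ± 0.9 and 22.3% ± 5.0, Sec24b 16.9% ± 3.4 and 16.3% ± 3.1, and Sec24a 14.1% ± 2.9 and 13.3% ± 2.4. In each of the 9 sets the KO and WT ranges of the shares overlapped. These shares were not tested.

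**Figure D3:**
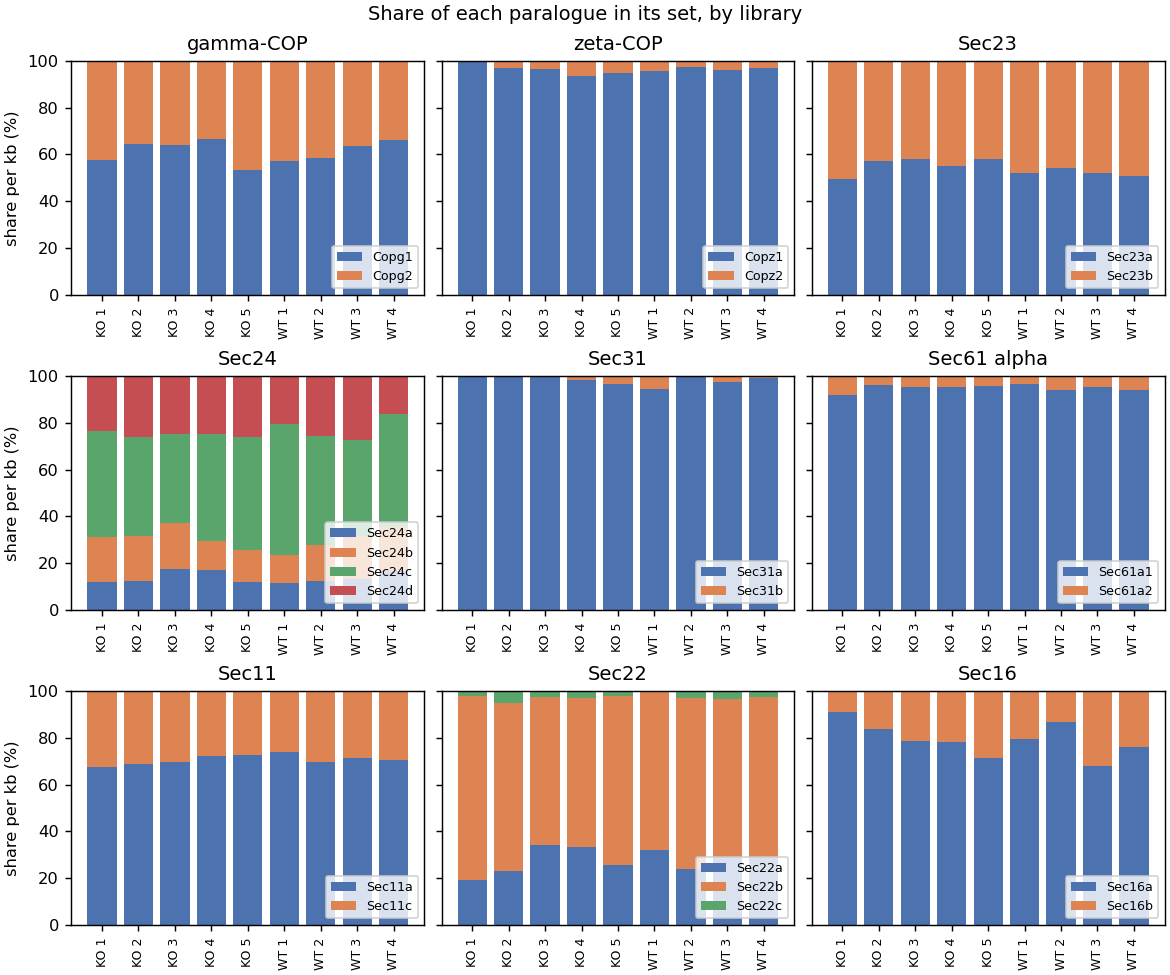
Share (%) of each paralogue in the summed normalized count per kb of its set, 1 stacked bar per library (KO 1 to 5, WT 1 to 4). The KO and WT ranges of the shares overlap in each panel. Copz1, Sec31a and Sec61a1 take 92.1% or more, Sec23a lies between 49.7% and 58.2%, and Sec16a varies from 67.9% to 91.0% over the libraries.

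Many genes of this route are known targets of transcription factors that answer secretory load, namely XBP1 and ATF6 in the unfolded protein response and the CREB3 family at the Golgi. Their motifs were therefore looked for in the promoters of the members, 250 bases before to 50 after the start site, on both strands (RefSeq, GRCm38.p6; 61 of the 73 members matched). The motif TGACGTGG was found in 5 of 61 members (8.2%), against 0.714% of 27025 genes with a promoter in that table and 1.05% of the 11283 of them that were also measured here. The related motif TGACGTCA, which shares its first 6 bases, was found in 1 member (1.64%), against 2.03% of all and 3.41% of measured genes. The ER stress motif, CCAAT and CCACG with 9 bases between, was found in 0 members, against 0.137% of all and 0.168% of measured genes. A motif this rare would seldom be met in 61 promoters, so the 0 cannot set the members apart from other genes. A match is only a run of letters and does not show that a factor binds there.

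Windows from 5 of the members' promoters are shown because they hold these letters: TGACGTGG in the first 4, and TGACGTCA in Cope. Each is given in the direction of its gene, 5′ to 3′, with the motif or its reverse complement in capitals and 12 bases on either side.
Copb1, chr7:114254689-114254720, minus strand: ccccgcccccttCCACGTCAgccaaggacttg
Copb2, chr9:98563712-98563743, plus strand: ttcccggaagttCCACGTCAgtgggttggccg
Sec16b, chr1:157506740-157506771, plus strand: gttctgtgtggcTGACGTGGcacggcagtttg
Sec24d, chr3:123267458-123267489, plus strand: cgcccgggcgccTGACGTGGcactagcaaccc
Cope, chr8:70302545-70302576, plus strand: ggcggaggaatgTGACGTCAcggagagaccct

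The motif begins 28 bases before the RefSeq start site in Copb1, 7 in Copb2, 44 in Sec16b, 26 in Sec24d and 210 in Cope. By the GENCODE gene bounds, which give the other positions here, each of these motifs lies inside its gene, so the 2 annotations differ in start site. The 5 members with TGACGTGG, of which 4 are shown, had a median log2 difference of -0.06 and the other 56 one of 0.06, and 0 of the 5 had an unadjusted p under 0.05. Sec16b, whose product is a second exit-site scaffold, was the only low one of them, at 340 ± 137 in KO libraries and 369.9 ± 110 in WT ones (SD, n = 5 and 4).

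TRAPP, which activates Rab GTPases as it tethers vesicles, was measured through 14 genes, 5 higher and 9 lower in KO, with a median log2 difference of -0.05. Trappc1 and Trappc4, subunits of the core that all forms of the complex share, were the most abundant. Trappc1 had 4632 ± 449 in KO libraries and 5259 ± 336 in WT ones, a ratio of 0.879 with a 95% interval of 0.748 to 1.03. Trappc4 had 4879 ± 91.8 and 4951 ± 365, a ratio of 0.987 with an interval of 0.853 to 1.14. Trappc11, a subunit of the TRAPPIII form that acts in ER exit and autophagy, had the largest difference of the class. It had 1716, 1444, 1458, 1104 and 1949 in KO and 672, 1184, 941 and 1660.06 in WT. The highest WT library, replicate 4, lay above 3 of the KO libraries, and the log2 difference of 0.51 (SE 0.25, unadjusted p = 0.062, limma adjusted p = 0.57) did not pass. It was 0.30 without WT replicate 1 and 0.73 without WT replicate 4. Its unadjusted p was under 0.05 without WT replicate 4, without KO replicate 4 and with depth class as a term, and its adjusted p was above 0.05 in each of these fits. The other subunits of that form, Trappc8, Trappc12 and Trappc13, had log2 differences of -0.08, -0.31 and -0.01, and Trappc9 and Trappc10 of the TRAPPII form had -0.20 and 0.34, each with a limma adjusted p of at least 0.715. Trappc5 had 824 ± 14.6 in WT, with hardly any spread, and 1074 ± 328 in KO, between 619 and 1494 (limma adjusted p = 0.751).

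The COG complex, which tethers vesicles that recycle within the Golgi and whose loss disturbs glycosylation, held the member with the smallest p. Cog5, on chromosome 12 from 31654869 to 31937630 (mm10, plus strand), had 529.8, 513, 325, 386 and 528 normalized counts in KO replicates 1 to 5 and 553, 568, 1141 and 1110.35 in WT replicates 1 to 4. Each KO library lay below each WT library, by a small margin for WT replicates 1 and 2 and a wide one for WT replicates 3 and 4. The log2 difference was -0.83 (SE 0.32, unadjusted p = 0.022), with a limma adjusted p of 0.433. WT replicates 3 and 4 are the 2 shallower WT libraries, while the shallower KO library, replicate 5, had 528. Within the 6 deeper libraries the difference was -0.38 (limma adjusted p = 0.814). It was -0.71, -0.65 and -0.66 without KO replicate 3, WT replicate 3 or WT replicate 4, and in each of these fits the unadjusted p was above 0.05. Its exons overlap Hbp1 on the opposite strand, whose level was far higher and lay between 12701 and 16404 in KO and between 15406 and 16903 in WT. The library protocol keeps strand, but the sources used here do not say whether counting used it.

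The other 7 COG genes had limma adjusted p between 0.812 and 1. Cog2 had 1617 ± 495 in KO libraries and 1583 ± 344 in WT ones (SD, n = 5 and 4), with a 95% interval of the ratio of 0.711 to 1.41. Cog4 had 1414 ± 237 and 1544 ± 347, a ratio of 0.921 with an interval of 0.685 to 1.24. Cog6 and Cog7, which join Cog5 in the second lobe of the complex, had 1248 ± 164 and 1287 ± 195 in KO and 1294 ± 384 and 1127 ± 226 in WT. Cog8, the remaining member of that lobe, was low and variable, at 14.6 to 149.9 in KO and 13.8 to 202 in WT.

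Among the golgins, Golga7 was the other member with an unadjusted p under 0.05. Its product is a small Golgi protein that partners a palmitoyltransferase, and lacks the long coiled coil of the other golgins. Golga7 had 7003, 7425, 8085, 7481 and 6647 in KO libraries and 8838, 8287, 7978 and 8408 in WT. KO replicate 3 was the only KO library above the lowest WT library. The log2 difference was -0.20 (SE 0.09, unadjusted p = 0.048, limma adjusted p = 0.54), and in the 6 deeper libraries it was -0.19. Without KO replicate 1, KO replicate 5, WT replicate 1 or WT replicate 4, each left out in turn, its unadjusted p was above 0.05. Golga3 had the largest difference of the class, 1350 ± 393 in KO libraries and 986 ± 252 in WT ones (log2 difference 0.44, SE 0.25, limma adjusted p = 0.64). Golgb1, which encodes giantin, had 2876 ± 640 and 2621 ± 378, a ratio of 1.08 with a 95% interval of 0.843 to 1.40. Golga2, which encodes the cis-Golgi protein GM130, had 1185 ± 230 in KO libraries and 959.9 ± 146 in WT ones (SD, n = 5 and 4; limma adjusted p = 0.73).

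**Figure D4:**
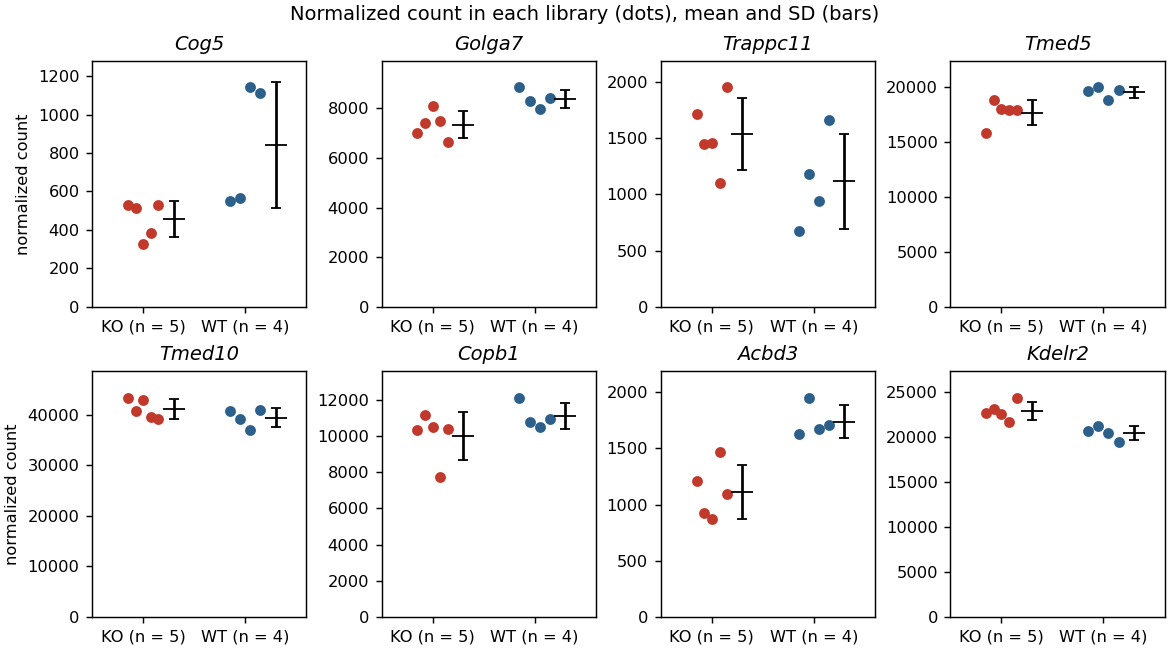
Normalized count in each KO (red, n = 5) and WT (blue, n = 4) library for 6 members and for the partner genes Acbd3 and Kdelr2, with mean and SD as black bars. The ranges stand apart in Cog5, Acbd3 and Kdelr2 and overlap in the other panels.

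The SNARE Sec22b, which pairs with Golgi SNAREs and is also known for bringing ER proteins to phagosomes, had 3601 ± 630 in KO libraries and 3427 ± 226 in WT ones, a ratio of 1.04 with a 95% interval of 0.847 to 1.28. Sec22a had 1811 ± 474 and 1852 ± 338, with a log2 difference of -0.06. Sec22c was low, with 158 to 331 in KO and 31.1 to 240.4 in WT, and its log2 difference of 0.63 (SE 0.64, limma adjusted p = 0.81) was -0.06 without WT replicate 1.

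Of the 8 ER entry genes that the symbols took in, 0 had an unadjusted p under 0.05. Sec61a1 had 16864 ± 1236 in KO libraries and 15373 ± 1758 in WT ones, a ratio of 1.10 with a 95% interval of 0.961 to 1.26, and Sec61g had 11368 ± 697 and 11654 ± 906, a ratio of 0.976 with an interval of 0.859 to 1.11. Sec62 and Sec63, which help secreted proteins enter the channel, had 8101 ± 413 and 2036 ± 758 in KO and 7579 ± 529 and 2168 ± 381 in WT. Sec63 had the largest difference of its class, -0.15 (SE 0.23). The signal peptidase catalytic subunits Sec11a and Sec11c, which cut signal peptides off as proteins enter the ER, had ratios of 0.981 and 1.03, with intervals of 0.868 to 1.11 and 0.892 to 1.20. Of the genes outside the route, Sec14l1 had 2643 ± 379 and 2356 ± 642 (log2 difference 0.19, SE 0.18). Sec14l2, Sec14l4 and Sec1 were at the floor in most libraries: Sec14l2 stood above it in KO replicate 1 (1.72) and WT replicate 4 (46.4), Sec14l4 in KO replicate 4 alone (74.4), and Sec1 in KO replicates 2 and 4 and WT replicate 1 (7.62, 64.3 and 88.7).

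Summed over a class, levels per kb were steadier than those of most single genes. The 8 COPI genes together had 13868 ± 336 normalized counts per kb in KO libraries and 13712 ± 383 in WT ones (SD, n = 5 and 4), a ratio of 1.01. The 12 COPII genes had 6744 ± 160.02 and 6898 ± 207 (ratio 0.978), and the 9 p24 genes 22808 ± 423 and 22160 ± 601 (ratio 1.03). TRAPP had 13413 ± 403 in KO libraries and 14263 ± 581 in WT ones, the lowest ratio among the tethers at 0.94, with KO between 13055 and 14062 and WT between 13804 and 15066. The KO and WT ranges overlapped in each class. Each sum rests mostly on its few most abundant genes, and the sums were not tested.

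**Figure D5:**
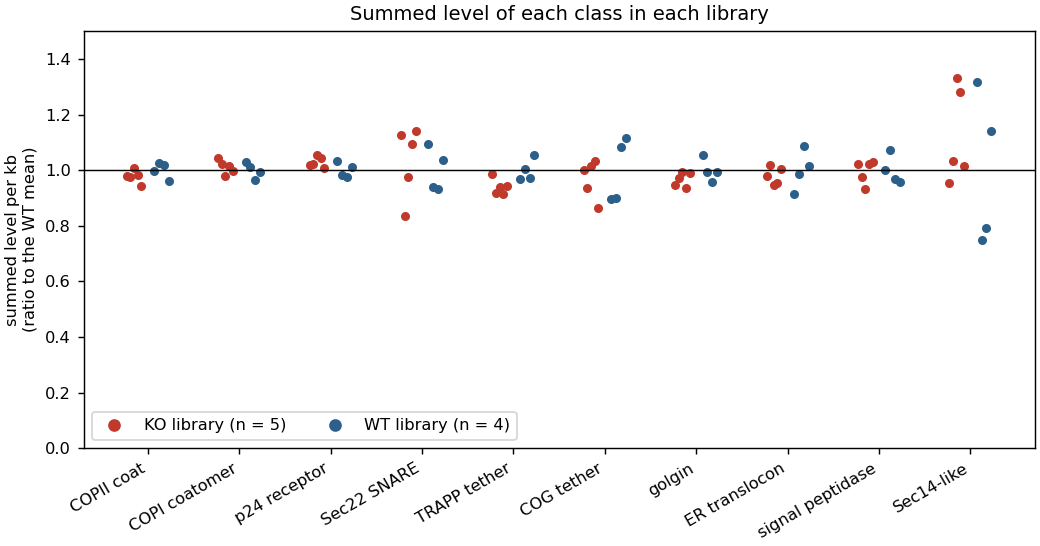
Summed normalized count per kb of each class in each library, divided by the WT mean of that class (KO red, n = 5; WT blue, n = 4). COPI, COPII, p24 and golgin libraries sit within about 10% of 1, and the Sec22 and Sec14-like classes, with 3 genes each, spread more.

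The spread within groups followed abundance. Among the 21 members with a mean of 5000 to 50000 normalized counts, the median coefficient of variation within groups was 7.61%, and it was 10.5% over the 1849 genes of the table in that band. Among the 35 members from 1000 to 5000 it was 19.7%, beside 19.2% over 4219 genes, with Tmed7 the most variable at 37.3%. Among the 12 from 100 to 1000 it was 37.6%, beside 40.2% over 5126 genes.

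The other genes of the route, which the symbol rule does not take, were read from the same fit: 64 partners of the coats, SNAREs and tethers, counted by symbol, all in the table. Ctage5, which was not matched to a single gene of GENCODE M21, was counted apart from Mia2. The number called was 0, with 8 at an unadjusted p under 0.05 (12.5% of 64), 6 higher and 2 lower in KO. That share was 9.14% over all genes and 12.3% over genes with a mean of at least 1000, a level that 53 of the 64 partners reach. The count of 8 was not stable: it was 4 in the 6 deeper libraries, where the share over all genes was 6.97%. With 1 library left out it was 3 to 7, beside 7.74% to 10.5% of all genes. Acbd3, a Golgi adaptor protein that binds giantin, had the smallest p. Its normalized counts were 1213, 921, 868, 1469 and 1095 in KO and 1625, 1954, 1670 and 1709 in WT. Each KO library of Acbd3 lay below each WT library (log2 difference -0.67, SE 0.20, unadjusted p = 0.0038), yet the limma adjusted p was 0.219. Mia3, which encodes the TANGO1 receptor that loads bulky cargo such as collagen, was the other lower one, with 3019 ± 243 in KO libraries and 3597 ± 202 in WT ones (log2 difference -0.25, limma adjusted p = 0.54).

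Of the 20 symbols listed as partners of COPII and of cargo sorting, 5 (25%) had an unadjusted p under 0.05, beside the same 9.14% and 12.3%, and 4 of them were higher in KO. This was the highest share among the partner lists, with 10% of 10 COPI partners and 9.52% of 21 tether partners. All partners together numbered 4 at that p in the 6 deeper libraries and 3 with the replicate block, fewer than these 5. The COPII list holds Kdelr1, Kdelr2 and Kdelr3, whose products cycle back in COPI vesicles, so it is not one of COPII alone. Kdelr2, a receptor that returns escaped ER chaperones through COPI vesicles, had 22636, 23129, 22478, 21653 and 24361 in KO libraries and 20640, 21181, 20464 and 19367 in WT. The groups did not overlap, but the difference was small (log2 0.16, SE 0.07, limma adjusted p = 0.49). Kdelr1, its paralogue, had 2472 ± 425 in KO libraries and 1918 ± 240 in WT ones (log2 difference 0.36, limma adjusted p = 0.51). The third paralogue, Kdelr3, was lower and more variable, at 790 ± 458 in KO libraries and 576 ± 322 in WT ones. Its groups overlapped (log2 difference 0.34, limma adjusted p = 0.86). Tfg, which organises COPII carriers at exit sites, had 5846, 5690, 5706, 5672 and 4474 in KO and 4356, 4648, 3940 and 4184 in WT, with only KO replicate 5 within the WT range (log2 difference 0.35, SE 0.11, limma adjusted p = 0.27). Ergic1, a cycling protein of the compartment between ER and Golgi, had 4369 ± 1010 and 3302 ± 440 (log2 difference 0.38, limma adjusted p = 0.48). Outside that list, Arfgap1, which ends a COPI cycle by switching off Arf1, had 872 ± 126 in KO libraries and 587 ± 126 in WT ones (log2 difference 0.58, limma adjusted p = 0.49). Gcc1, a golgin-type tether of the trans-Golgi, whose exons overlap Arf5 on the opposite strand, had 692 ± 311 and 313 ± 217 (log2 difference 1.20, limma adjusted p = 0.46). Among the 13 partner SNAREs and fusion factors 0 had an unadjusted p under 0.05, and Nucb1, the paralogue of Nucb2, had a log2 difference of 0.06 (limma adjusted p = 0.91).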

How the data were processed

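RNA sequencing of F4/80 and CD11b double-positive cells from visceral fat was used, 5 KO and 4 WT libraries, grouped by title. Partek, HISAT, DESeq2, CASAVA 1.8.2 and the mm10 build appear, without roles, in the submitters' processing notes; annotation and strand use in counting were not stated there. As deposited, the table holds a signal: read counts over 1 factor per library, floored at 1, as read from the values (in each library 100% of values above 1 and under 1000 reads were whole multiples of 1 step, within 0.1 of a step). The floor held 6.3% to 9.9% of genes, so no negative binomial model was fitted.

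limma 3.58.1 (R 4.3.3) with a mean-variance trend was fitted to log2(value + 1) of all 14905 genes, genotype only, Benjamini-Hochberg at 0.05 over all genes. Folds on this scale understate changes of low genes. The members and lists were chosen with earlier results of these data known. Text names members with an unadjusted p under 0.05 or separate ranges, the 2 most abundant and the most different of each role, paralogue sets, and up to 8 partners by p; other members named, such as Copb1 and Tmed7, were picked after their values were seen. Positions are from GENCODE M21 (GRCm38, that is mm10), matched by symbol for 73 of 73; exons of 27 overlap another gene's. Code was tested on simulated data. Alternatives covered pseudocount, filter, scaling, limma-voom, block, depth and left-out libraries. Tables were made in Python 3.11.15, figures with matplotlib 3.10.9. The window of 1 promoter is not reported here.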

Additional observations from a re-analysis of the deposited data

Results flagged for a closer look

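In 11 of 148 groups of libraries (73 members and Nucb2, KO and WT apart) 1 library stood far from the others by its gap over the group's range. Chance flags about 1 in 20 where values are not tied. That rate does not hold for genes with most libraries at the floor of 1. Among well-measured genes, Copb1 was at 7733.5 in KO replicate 4 (nearest other library 10340), Tmed7 at 5891.9 in KO replicate 2 (3192.3), Sec24b at 1251.4 in WT replicate 1 (1707.8), Trappc12 at 1098.1 in WT replicate 3 (1914.1), Sec61a2 at 893 in KO replicate 1 (567) and Trappc10 at 825 in KO replicate 1 (520.0), in normalized counts.

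The others were genes near the floor of 1: Sec1 at 64.3 in KO replicate 4 and 88.7 in WT replicate 1, Sec14l2 at 1.72 in KO replicate 1 and 46.4 in WT replicate 4, and Sec14l4 at 74.4 in KO replicate 4. The flagged libraries were KO replicates 1, 2 and 4 and WT replicates 1, 3 and 4, with no single library behind most of them.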

How the results depend on the processing

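The number of called members, 0, and of called partners, 0, was the same in each of the 18 alternatives, in which the number of all genes called ranged from 0 to 52 (0 in the 6 deeper libraries, 0 with the replicate block, 5 to 38 without 1 library). The replicate block fit uses replicates 1 to 4, since KO replicate 5 has no partner; same-numbered libraries do not deviate together (correlations -0.021, -0.002, 0.016 and 0.017). With the replicate block Nucb2 was -1.58 (limma adjusted p = 0.0515), and in the 6 deeper libraries -1.61 (limma adjusted p = 0.116); without 1 library it was -1.64 to -1.42. The median over members was -0.02 in the 6 deeper libraries, 0.0114 with a pseudocount of 10, 0.0133 with quantile normalization and -0.002 to 0.034 without 1 library.

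Members at an unadjusted p under 0.05 numbered 6 of 73 in the 6 deeper libraries, where 6.97% of all genes had one. These were Cog3, Copa, Sec24c, Sec61a1, Tmed4 and Trappc6a, with neither Cog5 nor Golga7 among them. The number was 3 with quantile normalization (8.71% of all genes), 1 with limma-voom (8.26%) and 1 with a pseudocount of 10 (9.2%). It was 0 with the replicate block (7.41%) and 1 to 5 without 1 library (7.74% to 10.5%). Partners at that p numbered 4 in the 6 deeper libraries, 3 with the replicate block and 3 to 7 without 1 library. Members with an interval within 1.5-fold numbered 28 in the 6 deeper libraries, 38 with the replicate block, 37 to 43 without 1 library and 43 to 46 in the other fits. In the 6 deeper libraries the medians of COPI and p24 were -0.067 and -0.025.

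Named members whose sign turned were all far from the threshold. In the 6 deeper libraries Cog2 was 0.29, Cog4 0.089, Golgb1 -0.089, Sec22b -0.040, Sec63 0.066 and Tmed1 -0.10. With quantile normalization Copz1 was 0.0039, Sec11a 0.013, Sec61g 0.013 and Trappc4 0.0049. Cog2 was also 0.0066 with depth class as a term, 0.057 in limma-voom, 0.0012 with median-ratio scaling, 0.00013 with a pseudocount of 10 and 0.090 with the replicate block. Without 1 library the ranges were -0.14 to 0.14 (Cog2), -0.23 to 0.019 (Cog4), -0.55 to 0.34 (Copz2), -0.16 to 0.068 (Sec22a), -0.020 to 0.12 (Sec22b), -0.061 to 0.91 (Sec22c), -0.072 to 0.0096 (Sec61g) and -0.060 to 0.021 (Trappc4). Members under 100 normalized counts (5 genes) had a median coefficient of variation within groups of 192%, beside 124% over 3522 genes of that band. The part of depth in this spread was not tested.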
